A study of Mus musculus with 14 samples.

Results

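The attractin family genes Atrnl1 and Atrn, the ubiquitin ligase gene Mgrn1 and the tetraspanin gene Cd9 were followed in granulosa cells (GCs) of obese and lean mice. They are 4 of the 55414 genes in the count table and were chosen by name, and all 4 passed the filter on low counts in each comparison. Atrnl1 and Cd9 were taken up because their levels stood out between db/db mice and their controls. Levels in those 8 libraries are therefore a description. The 4 genes were tested in the ob model, on libraries other than those for which Atrnl1 and Cd9 were taken up. Earlier results of these data were known when the genes were chosen, so these tests are not fully independent of the choice.

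GCs, the somatic cells that surround the oocyte, came from antral follicles of female mice kept on chow until 12 weeks of age. There were 4 libraries of db/db mice (B6.BKS(D)-Leprdb/J), which lack a working long form of the leptin receptor, and 4 of their lean littermates (CT db). The ob model (B6.Cg-Lepob/J) gave 3 libraries of ob/ob mice, which lack working leptin, and 3 of lean littermates (CT ob). Each library held about 50 pooled cells, and neither the labels nor the column names say how many mice contributed. The labels give the controls as wild type, while the names of their columns in the table read as heterozygous, and this was not resolved. Replicates are separate libraries of a group, and where mice were shared the spread between them may be partly technical.

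ATRN and ATRNL1 are related single-pass membrane proteins with a large extracellular region. ATRN is the product of the mouse mahogany locus and is needed for agouti to act on melanocortin receptors in the skin. MGRN1, or mahogunin, is a RING-type E3 ubiquitin ligase whose loss gives a similar dark coat, and it also lowers the amount of the hedgehog transducer Smoothened at the cell surface. CD9 belongs to the tetraspanins, membrane proteins that gather integrins, immunoglobulin-domain proteins and proteases into patches of the cell surface, and CD9 of the oocyte is needed for fusion with sperm.

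The deposited values were whole-number counts per gene, and levels are given here as CPM, counts scaled to a common library size, after correction of the library totals by the TMM method of edgeR. Totals ran from 2204686 to 8367593 counts per library, lowest in db/db (2204686 to 3059777) and highest in ob/ob (5306632 to 8367593), and 3 counts, taken as the limit of detection, amounted to 0.369 to 1.30 CPM. Lepr had 0 to 17 counts and Lep 0 to 3 counts per library, too few to check the genotypes, and a gene-level count does not register either mutation. All 10 GC markers examined, such as Fshr, Inha and Foxl2, were detected in each library, with a summed level of 5678 to 16450 CPM. In such bulk samples, fewer cells of a type and less RNA per cell cannot be told apart. Libraries are named here by group and by the number in their column name.

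Atrnl1 (ENSMUSG00000054843) spans 57598926 to 58121775 on the forward strand of chromosome 19 in GRCm39. Its level in db/db GCs was 133, 108, 125 and 114 CPM in libraries 24, 53, 68 and 81. In CT db it was 46.7, 62.2, 64.8 and 63.6 CPM in libraries 37, 51, 69 and 75. Each db/db library lay above each CT db library, and the lowest of the former (108 CPM) exceeded the highest of the latter by a wide margin. The means were 120.3 ± 11.15 CPM (SD, n = 4) and 59.3 ± 8.48 CPM (SD, n = 4), which is 2.02-fold, or 1.01 ± 0.146 (SE) on the log2 scale. As background, 1.85% of the 11317 genes fitted in this model had all mutant libraries above all control libraries, and 1.55% had a log2 fold change at least as large in size as that of Atrnl1. Of the same genes 0.00884% were called by edgeR and 0.389% by DESeq2, and 7.59% had an unadjusted p under 0.05. Nothing is read from these shares, since the gene was chosen on these libraries. Leaving out any single library kept the log2 fold change within 0.92 and 1.06.

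In the ob model Atrnl1 stood at 70.4, 90.4 and 61.8 CPM in ob/ob libraries 106, 41 and 50. In CT ob it stood at 50.8, 44.6 and 33.99 CPM in libraries 60, 65 and 68. The 2 groups again did not overlap, with the mutant above the control in each case. The means were 74.2 ± 14.7 CPM (SD, n = 3) and 43.1 ± 8.49 CPM (SD, n = 3), or 0.77 ± 0.227 (SE) on the log2 scale. This difference was not called by edgeR's quasi-likelihood test after Benjamini-Hochberg adjustment over 12425 genes (adjusted p = 0.539), nor by DESeq2 (adjusted p = 0.213). An exact two-sided permutation test gave p = 0.1, the smallest that 3 against 3 libraries allow. Of all genes fitted in the ob model, 8.2% had all mutant libraries above all control libraries, 7.5% had all of them below, and 10.5% had a log2 fold change of at least this size, so that the separation was not unusual in this comparison. The median log2 fold change of the 10 GC markers in the ob model was of like size, at 0.77. Single markers ran from -0.52 (Amh) to 2.88 (Inhba), and Foxl2 (-0.43) also lay below 0. Of these 10, 0 were called and 4 had an unadjusted p under 0.05, and Fshr (1.05), Cyp19a1 (1.59) and Fst (1.03), picked out for this, had all ob/ob libraries above all CT ob libraries. The stromal marker Pdgfra (-1.82, called by DESeq2 alone with adjusted p = 0.0132) and the endothelial marker Kdr (-2.55, not called) had all ob/ob libraries below. The part of these markers in the difference of Atrnl1 was not tested. In the db model the median of the GC markers was 0.04. By edgeR's test no gene of the ob model reached an adjusted p of 0.05 (percent called 0), while 8.16% had an unadjusted p under 0.05 and 0.692% were called by DESeq2.

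Between the models, Atrnl1 was highest in db/db, followed by ob/ob, CT db and CT ob. The db/db libraries (108 to 133 CPM) lay clear of the ob/ob libraries (61.8 to 90.4 CPM), with a log2 fold change of -0.70 for ob/ob against db/db, in a comparison where 4.38% of genes had all ob/ob libraries below all db/db libraries. The ob/ob and CT db libraries overlapped, and so did those of CT db and CT ob. The log2 fold change of CT ob against CT db was -0.45 ± 0.183 (SE). Model, strain and litter cannot be told apart in these 2 comparisons, and whether the mutant-to-control difference of Atrnl1 differed between the models was not tested.

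**Figure D1:**
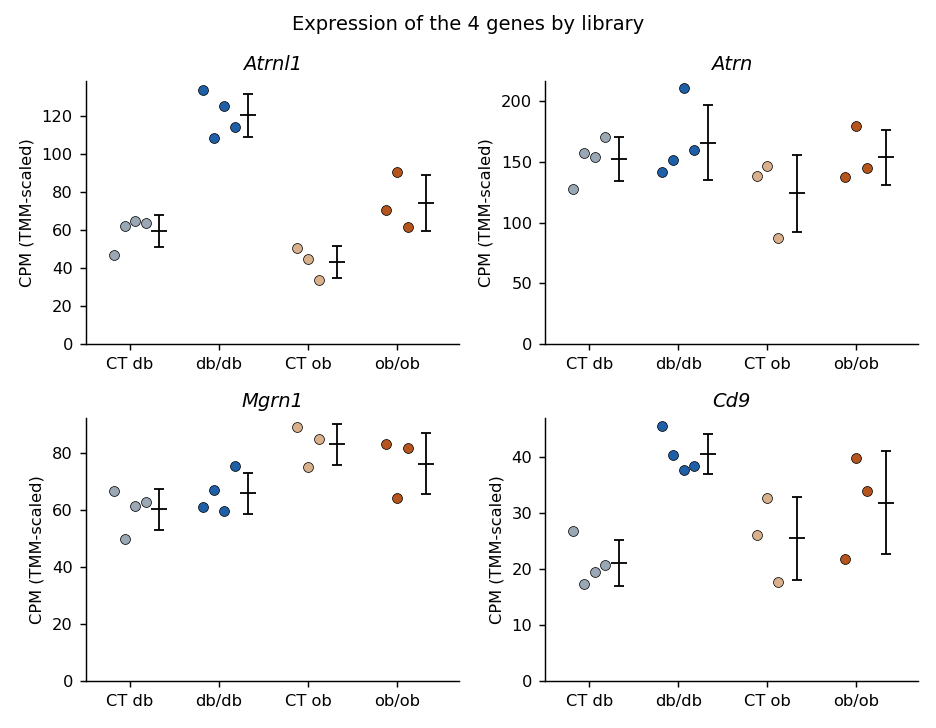
Level of Atrnl1, Atrn, Mgrn1 and Cd9 in each library (points) as TMM-scaled CPM, by group, with the mean and SD of the group beside the points (n = 4 for CT db and db/db, n = 3 for CT ob and ob/ob). Atrnl1 and Cd9 show db/db libraries above all CT db libraries (108 to 133 against 46.7 to 64.8 CPM, and 37.7 to 45.6 against 17.3 to 26.7 CPM), while the groups of Atrn and Mgrn1 overlap within each model. The db/db and CT db libraries are those on which Atrnl1 and Cd9 were chosen.

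Atrn (ENSMUSG00000027312) lies on chromosome 2 from 130748382 to 130872253, forward strand, and was the most counted of the 4 genes. Its levels were 142, 152, 210.4 and 160 CPM in db/db libraries 24, 53, 68 and 81, and 128, 157, 154 and 171 CPM in CT db libraries 37, 51, 69 and 75. The groups overlapped throughout, with a single db/db library above the others. Means were 166 ± 30.6 CPM and 152 ± 18.1 CPM (SD, n = 4 each), 0.12 ± 0.155 (SE) apart on the log2 scale. Levels in the ob model were 137, 180 and 145 CPM in ob/ob libraries 106, 41 and 50, and 138, 147 and 87.7 CPM in CT ob libraries 60, 65 and 68. The log2 fold change of 0.30 ± 0.232 (SE) was within the spread between libraries (edgeR adjusted p = 0.742, exact permutation p = 0.5), and it fell to 0.11 without CT ob library 68. Neighbouring groups in the order db/db, ob/ob, CT db and CT ob all overlapped.

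Atrnl1 and Atrn could be set against each other within a library, where depth and scaling cancel. The ratio of Atrnl1 counts to Atrn counts was 0.943, 0.714, 0.595 and 0.716 in db/db libraries 24, 53, 68 and 81. It was 0.366 to 0.421 in the 4 CT db libraries, which lay close together. The ob/ob libraries had ratios of 0.513, 0.503 and 0.427, and the CT ob libraries 0.368, 0.304 and 0.388. The mutant libraries lay above the control libraries in both models, and the ob/ob libraries lay below those of db/db. The ratio of the geometric means, mutant to control, was 1.88 in the db model, given as a description, and 1.36 in the ob model (exact two-sided permutation p = 0.1, the smallest possible with 3 against 3). Of the 2 attractin transcripts, Atrnl1 had the larger log2 fold change in both models (1.01 and 0.77, against 0.12 and 0.30 for Atrn). No window of 75 bases, the read length, was shared between transcripts of Atrnl1 and Atrn, so reads of either gene could not be assigned to the other by identical sequence.

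**Figure D2:**
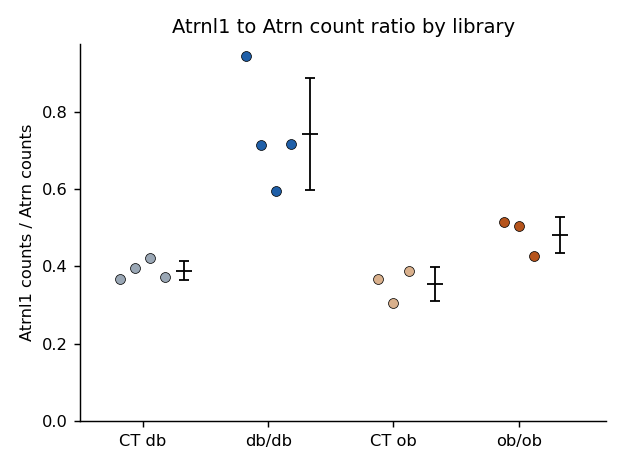
Ratio of Atrnl1 counts to Atrn counts in each library (points), by group, with the mean and SD beside the points (n = 4 or 3 libraries). The db/db libraries span 0.595 to 0.943 and the ob/ob libraries 0.427 to 0.513, above CT db (0.366 to 0.421) and CT ob (0.304 to 0.388) respectively.

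Mgrn1 (ENSMUSG00000022517; chromosome 16, 4703484 to 4756345, forward strand) had overlapping levels in mutants and controls of each model. Its level was 61.0, 67.1, 59.8 and 75.6 CPM in db/db libraries 24, 53, 68 and 81, and 66.7, 49.8, 61.6 and 62.8 CPM in CT db libraries 37, 51, 69 and 75. The log2 fold change of 0.13 ± 0.143 (SE) was smaller than the spread between libraries. The ob/ob libraries 106, 41 and 50 held 83.2, 64.1 and 81.6 CPM and the CT ob libraries 60, 65 and 68 held 89.3, 75.2 and 85.0 CPM, -0.13 ± 0.184 (SE) apart on the log2 scale (edgeR adjusted p = 0.866, exact permutation p = 0.5). The groups of the ob model overlapped, and ob/ob overlapped with db/db. The separation seen for Mgrn1 was between the controls, where the 3 CT ob libraries (75.2 to 89.3 CPM) lay above the 4 CT db libraries (49.8 to 66.7 CPM), by 0.47 ± 0.153 (SE) on the log2 scale. In that comparison 9.8% of the 12586 genes fitted had all CT ob libraries above all CT db libraries, and no test was made for Mgrn1, since the CT db libraries had a part in the choice of the genes. Of the exonic bases of Mgrn1, 10.1% are shared with the antisense gene Gm16861, which had at most 2.32% of the counts of Mgrn1 in any library, and 8.3% of its 75-base windows recur in transcripts of other genes.

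Neither model had a called difference between mutants and controls among genes linked to the attractins and MGRN1. Of 4 such genes (Mosmo, Rnf157, Smo and Tsg101), all tested, 0 were called in either model by edgeR or DESeq2. Calls were rare among all genes fitted, at 0.00884% (db) and 0% (ob) by edgeR. By DESeq2 they were 0.389% (db) and 0.692% (ob). With calls this rare, little can be read from 0 calls among 4 genes. Their median log2 fold change was -0.01 in the db model, against 0.01 for all genes fitted, and 0.20 in the ob model against -0.04 for all genes. Tsg101, whose product is a sorting protein ubiquitinated by MGRN1, averaged 122 ± 9.84 CPM among db/db and 126 ± 11.5 CPM among CT db libraries (SD, n = 4 each). Smo, which encodes Smoothened, averaged 54.9 ± 9.80 CPM for db/db, 54.2 ± 8.72 CPM for CT db, 46.3 ± 7.51 CPM for ob/ob and 56.5 ± 4.44 CPM for CT ob. Mosmo, whose product modulates Smoothened, averaged 43.9 ± 6.83 CPM for db/db, 44.3 ± 12.1 CPM for CT db, 31.3 ± 10.8 CPM for ob/ob and 19.7 ± 4.86 CPM for CT ob. Among these genes, Rnf157, the paralog of Mgrn1, passed an unadjusted p of 0.05 in the db model and was picked out after its values were seen. It had 3.84, 4.30, 5.63 and 2.81 CPM in db/db and 1.13, 1.70, 3.02 and 0.819 CPM in CT db, with overlapping groups and 3 to 13 counts per library (edgeR adjusted p = 0.574).

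The hedgehog pathway, on which MGRN1 acts through Smoothened, was represented in GCs by ligand, receptor and transducer transcripts. Ihh, the ligand that GCs send to the theca, was the most abundant, with means of 112 ± 25.0 CPM for db/db and 120.1 ± 84.3 CPM for CT db (SD, n = 4 each), and of 166 ± 57.6 CPM for ob/ob and 284 ± 51.7 CPM for CT ob (SD, n = 3 each). All its ob/ob libraries were below all CT ob libraries, as was so for 7.5% of all genes in the ob model. The log2 fold change of -0.78 ± 0.277 (SE) was not called (edgeR adjusted p = 0.566). Ptch1, the receptor and itself a target of the pathway, averaged 62.8 ± 6.71 CPM for db/db, 48.6 ± 14.4 CPM for CT db, 52.9 ± 7.36 CPM for ob/ob and 62.8 ± 17.8 CPM for CT ob. The transcription factor gene Gli1, the usual readout of pathway activity, averaged at most 0.567 CPM in any group and had 0 counts in the CT db libraries. Shh had 0 counts in each library. Of the 16 genes listed, 10 passed the filter of the db model and 9 that of the ob model, and 0 were called in either. Little can be read from this, since edgeR called only 0.00884% (db) and 0% (ob) of all genes fitted. The median log2 fold change was 0.12 in the db model, with 6 genes above 0 and 4 below, and -0.25 in the ob model, with 4 above and 5 below.

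The melanocortin system, with which ATRN is best known to act, was hardly present. Transcripts of the receptors Mc1r, Mc2r and Mc4r had 0 counts in all libraries. Mc3r reached 2 counts, Mc5r 10 counts, the precursor gene Pomc 17 counts, the antagonist gene Agrp 5 counts and the agouti gene a 1 count at most. Of the 10 genes listed, Mrap, which encodes an accessory protein of melanocortin receptors, alone passed the filter. It averaged 17.7 ± 6.84 CPM for db/db, 17.95 ± 6.43 CPM for CT db, 7.49 ± 4.26 CPM for ob/ob and 9.38 ± 7.69 CPM for CT ob, and it was not called in the db model (log2 fold change -0.03, edgeR adjusted p = 0.988) or the ob model (-0.32, adjusted p = 0.918). Its relative Mrap2 averaged 2.25 ± 1.79 CPM for db/db, 0.850 ± 0.733 CPM for CT db, 1.90 ± 0.838 CPM for ob/ob and 0.570 ± 0.419 CPM for CT ob, on 1 to 23 counts per library.

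Cd9 (ENSMUSG00000030342) lies on the reverse strand of chromosome 6 from 125437210 to 125471778, the chromosome that also carries Lep, 96.4 Mb away. Its level in db/db was 45.6, 40.4, 37.7 and 38.4 CPM in libraries 24, 53, 68 and 81. In CT db it was 26.7, 17.3, 19.5 and 20.8 CPM in libraries 37, 51, 69 and 75. All db/db libraries were above all CT db libraries, on 87 to 123 counts against 71 to 95. Of all genes fitted in the db model, 1.85% were separated in this direction. Nothing is read from this separation, since Cd9 was chosen on these libraries. The means were 40.5 ± 3.58 CPM (SD, n = 4) and 21.1 ± 4.05 CPM (SD, n = 4), which is 1.92-fold, or 0.94 ± 0.177 (SE) on the log2 scale, with 0.86 to 1.08 when any single library was left out. In ob/ob Cd9 stood at 21.7, 39.9 and 33.99 CPM in libraries 106, 41 and 50, and in CT ob at 26.1, 32.6 and 17.7 CPM in libraries 60, 65 and 68. These groups overlapped, with the lowest ob/ob library below both higher CT ob libraries. The log2 fold change of 0.31 ± 0.313 (SE) was not called (edgeR adjusted p = 0.803, exact two-sided permutation p = 0.4). Without CT ob library 68, which held the lowest level of Atrnl1, Atrn and Cd9 in CT ob and the lowest scaling factor of all libraries (0.803), it was 0.12. In the order db/db, ob/ob, CT ob and CT db, each group overlapped with the next. Of the exonic bases of Cd9, 11.4% are shared with the antisense gene Gm26728, which had at most 0.362% of its counts in any library. Of its 75-base windows 7.83% recur in transcripts of other genes.

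**Figure D3:**
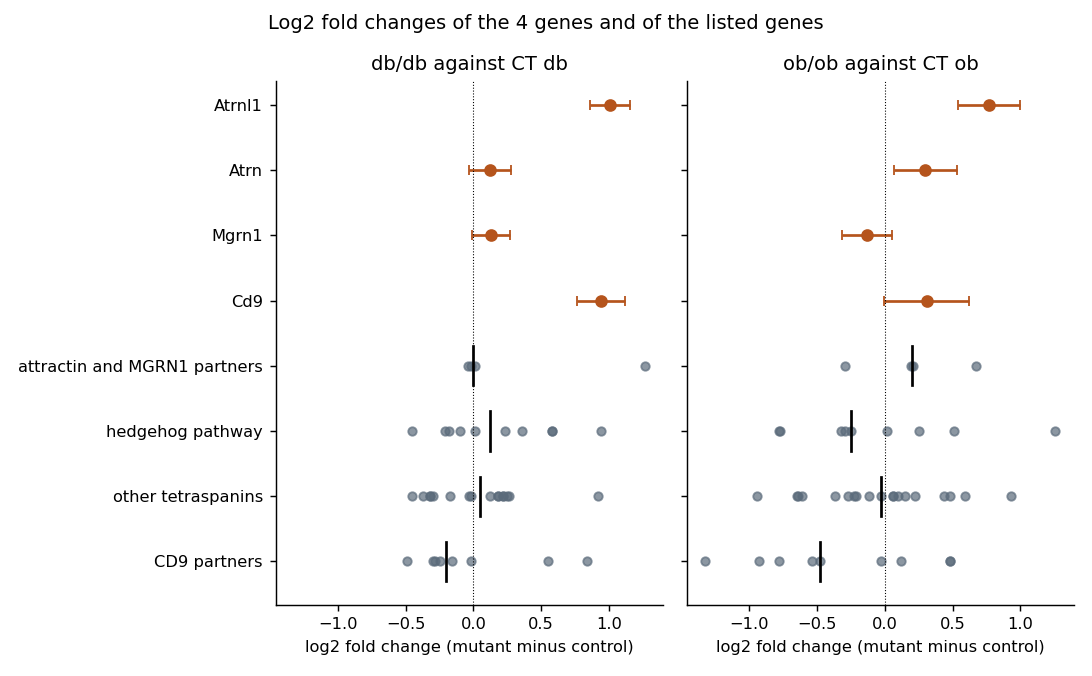
Log2 fold change, mutant minus control, in the db model (left) and the ob model (right). The upper 4 points are Atrnl1, Atrn, Mgrn1 and Cd9 with their standard error, and the lower points are the tested genes of each list with their median as a bar. Atrnl1 (1.01 and 0.77) lies furthest to the right of the 4 genes in both models, and the medians of the 4 lists plotted lie between -0.21 and 0.20 but for -0.25 and -0.48 in the ob model.

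To show the sequence at the start of the 2 genes that stood higher in db/db, the windows from 250 bases before to 50 bases after their annotated starts are given here, 5′ to 3′ on the strand of the gene, from RefSeq on GRCm38.p6. All 4 genes matched an entry. Capitals mark the GC box GGGCGG, read on either strand, a sequence that SP-type factors bind. The Atrnl1 window is chr19:57610784-57611083, forward strand, and the Cd9 window is chr6:125494711-125495010, reverse strand.
Atrnl1: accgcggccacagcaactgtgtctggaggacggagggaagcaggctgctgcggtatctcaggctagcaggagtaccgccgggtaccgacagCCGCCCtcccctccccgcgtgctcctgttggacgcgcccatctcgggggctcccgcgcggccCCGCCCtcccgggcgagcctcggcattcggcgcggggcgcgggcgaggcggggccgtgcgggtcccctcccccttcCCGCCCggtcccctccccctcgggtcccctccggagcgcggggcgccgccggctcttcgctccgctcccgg
Cd9: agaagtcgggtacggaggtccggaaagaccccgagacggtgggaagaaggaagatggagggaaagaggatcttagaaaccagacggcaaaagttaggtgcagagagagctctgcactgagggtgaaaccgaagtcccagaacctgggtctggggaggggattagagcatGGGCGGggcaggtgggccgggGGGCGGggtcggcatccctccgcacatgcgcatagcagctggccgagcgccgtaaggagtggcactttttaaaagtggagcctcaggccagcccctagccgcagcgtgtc

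The GC box occurred 3 times in the Atrnl1 window, starting 159, 97 and 21 bases before the gene's start, and 2 times in the Cd9 window, 81 and 60 bases before it. The Atrn window held 2 matches and the Mgrn1 window 0. Of 32851 promoter windows of the same length, 35.7% held at least 1 match. The G and C content was 77.7% for Atrnl1, 69.3% for Atrn, 61.3% for Cd9 and 54.7% for Mgrn1, against a median of 52.7% over all windows and an upper quartile of 61.7%. The window of Atrnl1 was thus the richest in G and C of the 4. None of the 4 windows held the palindrome TTCNNNGAA that STAT factors bind, present in 8.3% of all windows. None held the NR5A sequence CAAGGTCA (1.56% of windows), the cAMP response element TGACGTCA (1.79%), the GLI sequence TGGGTGGTC (0.253%) or the TATA sequence TATAAA (13.6%), each searched on both strands. These matches describe the letters of the windows and say nothing of the binding of a factor.

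Among tetraspanins Cd9 stood in the upper part of the order, well below the most abundant. The comparison between genes was made per length, as mean CPM per kb of merged exons over the 14 libraries, a scale on which Cd9 (14.1) was ninth of 31 tetraspanin genes. Cd81, a close relative of Cd9, led with 123.5, followed by Tspan6 (46.0) and Tspan3 (38.4). Per kb of the longest transcript Cd9 ranked sixth, with 23.2. The place depended on the group, and by group means on the exon scale Cd9 was number 7 in db/db (19.1), number 6 in ob/ob (14.99), number 8 in CT ob (11.97) and number 9 in CT db (9.91). By the mean of all libraries on the exon scale, Cd9 was at 14.1 against 11.4 for Atrn, 6.23 for Mgrn1 and 3.98 for Atrnl1. Within CT db the order of Cd9 and Atrn was the reverse, at 9.91 against 11.5 per kb of exons and 16.4 against 17.4 per kb of the longest transcript. Within db/db Atrnl1 lay above Mgrn1, at 6.258 against 5.845 per kb of exons and 16.89 against 11.08 per kb of the longest transcript.

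**Figure D4:**
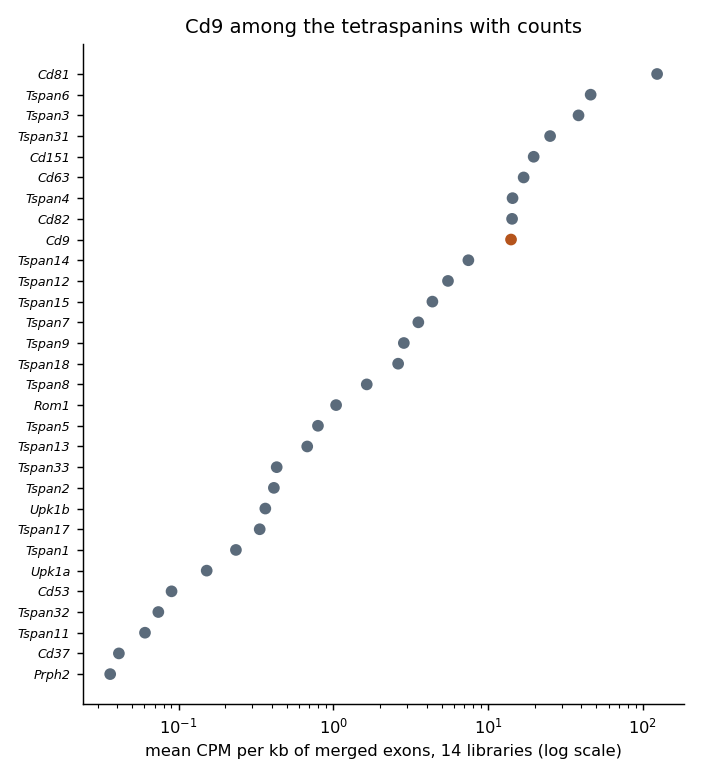
Mean CPM per kb of merged exons over the 14 libraries (log scale) for the tetraspanin genes with counts, with Cd9 in orange. Cd9, at 14.1, lies beside Cd82 (14.3) and Tspan4 (14.4) and below Cd81 (123.5).

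None of the other tetraspanins was called in db/db. Of 30 listed, 16 passed the filter of the db model and 19 that of the ob model, and 0 were called in either by edgeR or DESeq2. The share called of all genes was also small, at 0.00884% (db) and 0% (ob) with edgeR. With DESeq2 it was 0.389% (db) and 0.692% (ob). Their median log2 fold change in the db model was 0.05, with 8 genes above 0 and 8 below, against 0.01 for all genes, and in the ob model -0.03 against -0.04. Cd81, which encodes a partner of CD9 in oocytes and other cells, averaged 510.2 ± 47.1 CPM for db/db and 438 ± 123 CPM for CT db (SD, n = 4 each; log2 fold change 0.22, edgeR adjusted p = 0.808). Tspan3 (-0.32, adjusted p = 0.668) and Tspan6 (-0.37, adjusted p = 0.681) had lower means in db/db. Cd82, picked out after its values were seen, came nearest to Cd9, with 65.2, 123, 74.9 and 112 CPM in db/db libraries 24, 53, 68 and 81 and 34.3, 31.3, 75.01 and 58.4 CPM in CT db libraries 37, 51, 69 and 75. Its groups overlapped, and its log2 fold change of 0.92 ± 0.291 (SE) was not called (adjusted p = 0.526 by edgeR and 0.210 by DESeq2). Cd63, a tetraspanin of late endosomes, had ob/ob libraries 106, 41 and 50 at 56.6, 50.7 and 73.8 CPM, all below CT ob libraries 60, 65 and 68 at 89.1, 107 and 150.3 CPM. The difference was -0.94 on the log2 scale and was not called (edgeR adjusted p = 0.539). In the ob model 7.5% of all genes had all ob/ob libraries below all CT ob libraries. Cd63 too was picked out after its values were seen.

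Genes for proteins that bind CD9 gave no call either. Of 11 listed, 8 passed the filter of the db model and 9 that of the ob model, and 0 were called by edgeR or DESeq2. Over all genes fitted, edgeR called 0.00884% and 0% in these models, and DESeq2 0.389% and 0.692%. The median log2 fold changes of the list were -0.21 and -0.48, against 0.01 and -0.04 for all genes. The sheddase gene Adam10, the most abundant, averaged 613 ± 41.5 CPM for db/db and 743 ± 227 CPM for CT db (SD, n = 4 each). Itgb1, the integrin beta-1 subunit, averaged 329.8 ± 93.7 and 404 ± 49.1 CPM in the same order, and the sheddase gene Adam17 193 ± 16.0 and 194 ± 29.8 CPM. Hbegf, the growth factor precursor that CD9 binds, was the gene of this list with all db/db libraries above all CT db libraries, and was picked out for that. Of all genes fitted in the db model, 1.85% were separated in this direction. It had 22.6, 24.5, 22.1 and 31.6 CPM in db/db and 17.2, 9.37, 9.89 and 20.2 CPM in CT db (log2 fold change 0.84, not called). Igsf8, a direct partner of CD9, and Itga6, a laminin-binding integrin subunit, had each ob/ob library below each CT ob library and were picked out for that. In the ob model 7.5% of all genes were separated in this direction. Their log2 fold changes of -0.78 and -1.33 were not called (edgeR adjusted p = 0.585 and 0.604).

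Cd9 is also a transcript of oocytes and stroma, so markers of other cells were read in the same libraries. The summed level of 10 oocyte markers, such as Zp3 and Gdf9, was 5.54 to 65.4 CPM in db/db (with Figla at 0 in each db/db library), 2.82 to 252 CPM in CT db, 137 to 722 CPM in ob/ob and 68.3 to 1083 CPM in CT ob. The highest sum of the db/db libraries (65.4 CPM) was below that of each other group, and the db/db libraries 24 and 81 had 5.54 and 6.25 CPM beside Cd9 at 45.6 and 38.4 CPM. The 6 markers of theca and stroma summed to 296 CPM in db/db library 24 and to 16.9 to 43.1 CPM in the other db/db libraries. They summed to 13.8 to 47.8 CPM in CT db, 8.86 to 37.4 CPM in ob/ob and 20.9 to 64.8 CPM in CT ob, and Insl3 was at 0 in the CT db and CT ob libraries. The 4 surface epithelium markers also peaked in library 24, at 25.2 CPM against 0.546 to 4.30 CPM elsewhere. Their median sum was 2.8 CPM among db/db libraries against 0.708 CPM among those of CT db, with overlapping groups. Krt7, picked out after its values were seen, had all db/db libraries (0.433 to 4.26 CPM) above all CT db libraries (0 to 0.275 CPM). It was near the limit of detection, with 1 to 10 counts against at most 1. Leaving out library 24 does not remove this separation of Krt7. Without library 24 the log2 fold change in the db model was 0.88 for Cd9 and 0.96 for Atrnl1. The part of other cells in the levels of Cd9 and Atrnl1 was not tested. The markers of endothelium summed to 2.13 to 9.53 CPM in the db model, 6.77 to 8.03 CPM in ob/ob and 8.84 to 25.9 CPM in CT ob, and those of macrophages and leukocytes to 1.53 to 5.98 CPM in all libraries.

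**Figure D5:**
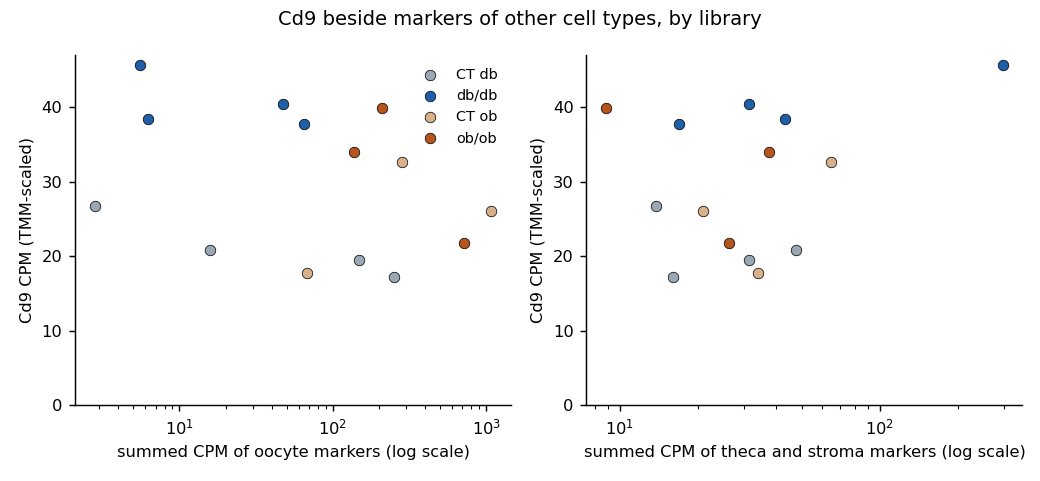
Cd9 in each library (TMM-scaled CPM) against the summed CPM of 10 oocyte markers (left) and 6 theca and stroma markers (right), both on a log scale, with libraries coloured by group. The db/db libraries hold Cd9 at 37.7 to 45.6 CPM with oocyte markers at 5.54 to 65.4 CPM, and library 24 stands apart at 296 CPM of theca and stroma markers.

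Between the controls of the models, the lists gave calls that rested on the fit. Fitted on all 14 libraries, 834 of 12586 genes (6.63%) differed between CT ob and CT db at an edgeR adjusted p of 0.05 (12.4% with DESeq2), among them 5 listed genes. Mosmo (log2 fold change -1.18, adjusted p = 0.0291), the hedgehog-linked receptor gene Gpr161 (-2.05, adjusted p = 0.0456), Tspan12 (-1.19, adjusted p = 0.0279) and Tspan6 (-0.92, adjusted p = 0.0316) were lower in CT ob. Gpr161 was near the limit of detection, with 1 to 7 counts per library in CT ob and 10 to 17 in CT db. Tspan15, whose product guides ADAM10, was higher, at 105, 52.1 and 55.8 CPM in CT ob against 29.6, 22.2, 20.6 and 12.6 CPM in CT db (1.75, adjusted p = 0.0352). When only these 2 groups were fitted, 3 genes were called in all and 0 of these 5. All 5 calls were likewise lost with library totals in place of TMM scaling and without CT ob library 68, CT ob library 60, CT db library 51 or CT db library 75. Without CT db library 69, 1 of the 5 (Mosmo) was kept. Between ob/ob and db/db 2 genes were called of 12586 (0.0159%), none of them listed, and 8.18% had an unadjusted p under 0.05. A test of the difference between the mutant effects of the models called 0 of the 43 listed genes it covered and 0 of all 12586 genes. Of the 43 listed genes 6 (14%) had an unadjusted p under 0.05, beside 8.11% of all genes.

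Genes near the 4 loci were examined as well. Within 1 Mb of Atrnl1, 8 other genes were tested in the db model, with a median log2 fold change of 0.06 and a range from -0.41 to 0.84, and 0 were called. Within 1 Mb of Cd9, 24 genes had a median of 0.07 and a range from -0.48 to 0.63, again with 0 called. In these libraries, on which both genes were chosen, the neighbours lay below Atrnl1 (1.01) and Cd9 (0.94). This was not so in the ob model, where the 11 neighbours of Atrnl1 (0.77) ran from -1.07 to 1.77 with a median of 0.04, and the 28 of Cd9 (0.31) from -1.55 to 0.68 with a median of -0.25. The 29 neighbours of Atrn had a median of 0.12 in the db model, and the 30 tested in the ob model a median of 0. Around Mgrn1 the medians were 0.06 (29 genes) and -0.23 (30 genes). In the ob model 7.5% of all genes had all ob/ob libraries below all CT ob libraries, and 8.2% had all above. Below were 8 of the 30 around Mgrn1, 6 of the 28 around Cd9, 2 of the 11 around Atrnl1 and 0 around Atrn. Above were 1 around Atrn and 0 around the other genes. None of the neighbours was called by edgeR in either model, with 0 to 3 per locus at an unadjusted p under 0.05. Among all genes fitted, edgeR calls were likewise rare (0.00884% for db, 0% for ob).

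Likeness of pattern was measured by Pearson's r between log2 CPM values over the 14 libraries, among 12585 genes, as a description that carries the group differences and the library composition with it. The 5 genes most like Atrnl1 were Gm41271 (r = 0.908), Vezf1 (0.906), Spopl (0.881), Fchsd2 (0.879) and Sdc4 (0.876), and the gene most opposed was Dapk2 (-0.924). For Atrn they were Zfp266 (0.945), Rab2b (0.926), Sppl2a (0.910), Pank3 (0.906) and Gm49310 (0.903), with Fsaf1 (-0.935) most opposed. For Mgrn1 they were Cars1 (0.919), Eva1b (0.911), Dag1 (0.907), Usp30 (0.892) and Gss (0.890), with Ppp3cb (-0.881) most opposed. For Cd9 they were Cfap20 (0.889), C530043K16Rik (0.863), Ap4b1 (0.808), Prdx2-ps1 (0.807) and Pdgfrb (0.801), with Arpc5l (-0.834) most opposed. None of the 4 genes was in the list of another. After the group means were removed, 0 of the 5 genes were the same for Atrnl1, Mgrn1 and Cd9, and 2 of the 5 for Atrn.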

How the data were processed

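RNA-seq was made from polyadenylated RNA of pooled GCs, as full-length cDNA read as single reads of 75 bp without molecular identifiers, so detection limits cover counting error only. The authors deposited whole-number counts per gene without normalization. According to their methods, reads were trimmed with cutadapt, mapped to GRCm39 with STAR and counted with featureCounts, while the submitters' processing notes name Trim Galore 0.6.2, HISAT2 2.1.0 and GRCm38. Which of these made the counts is not resolved, and strand and multi-mapping settings are not given in the sources used here. Overlapping and repeated sequence can thus share reads.

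The 4 genes and the gene lists were chosen with earlier results of these data known, and 1 listed gene is not reported here. Columns were assigned to groups by genotype and model. Genes passing filterByExpr of edgeR 4.0.16 (R 4.3.3; minimum count 10, minimum total 15) were tested by its quasi-likelihood test with TMM scaling, each model on its own and the comparisons between models in a fit of all 14 libraries. Genes were called at 0.05 after Benjamini-Hochberg adjustment. DESeq2 1.42.0, other scalings and filters and leaving out each library were alternatives. The standard error was the log2 fold change over the square root of the test's F. Likeness used log2 CPM with a prior count of 2. Single values were compared by exact permutation tests. Named were the 4 genes and, per list, called genes (up to 5), the 3 of highest mean CPM and genes said to be picked out after their values were seen. Listed genes at or near 0 counts are named too. The 5 genes most like each gene and the most opposed were also named. Of the identifiers, 54749 of 55414 matched the GENCODE vM39 annotation, from which positions on GRCm39 were taken. The steps were tested on simulated data. With edgeR 8% of simulated 2-fold changes and 60% of 4-fold changes were recovered in the ob model. In the db model the shares were 59% and 93%. With DESeq2 24% of 2-fold changes were recovered in the ob model. A gene not called in the ob model may therefore still differ. All columns of samples were used, and the study's qPCR and protein data were not analysed here.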

Additional observations from a re-analysis of the deposited data

Results flagged for a closer look

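In groups of 4 libraries, a value was singled out where its gap to the nearest of the others exceeded Dixon's critical share of the group's range, which chance alone does in about 1 of 20 groups. Of 84 such groups examined for the 4 genes and the listed genes, 4 were singled out. Atrnl1 in CT db library 37 was low, at 46.7 CPM against 62.2 to 64.8 CPM in the other CT db libraries, and without that library the log2 fold change in the db model was 0.92. Mrap in CT db had a library at 27.6 CPM against 14.1 to 15.3 CPM. Boc, a hedgehog co-receptor gene, had a db/db library at 2.58 CPM. Tspan13 in CT db had a library at 13.7 CPM against 3.10 to 4.10 CPM in the others. None of the groups of Atrn, Mgrn1 or Cd9 was singled out, and groups of 3 libraries were not examined.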

How the results depend on the processing

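The log2 fold changes of the 4 genes kept their direction and stayed uncalled in the ob model under all 8 alternatives, at 0.76 to 0.84 for Atrnl1 (adjusted p 0.101 to 0.744), 0.29 to 0.37 for Atrn, -0.14 to -0.05 for Mgrn1 and 0.30 to 0.38 for Cd9. With each library left out in turn they ran from 0.61 to 0.91 for Atrnl1, 0.11 to 0.45 for Atrn, -0.19 to -0.02 for Mgrn1 and 0.12 to 0.54 for Cd9. In the db model, leaving out 1 library moved Atrn from -0.02 (without db/db library 68) to 0.18. Counts of called genes depended on the setting, and the cause was not tested. In the db model, 1 gene was called at first, 44 by DESeq2, 2 by library totals, 270 without a filter, 0 with at least 10 counts in every library, 0 in a fit of all 14 libraries, and 1 to 4 with a library left out (4 without db/db library 68). In the ob model the counts were 0 at first, 86 by DESeq2, 359 without a filter, 1 in the fit of all 14 libraries and 0 to 0 with a library left out. For CT ob against CT db they were 834, 1563 by DESeq2, 261 by library totals, 1727 without a filter, 3 with only those groups fitted, and 112 (without CT ob library 68) to 1196 (without CT db library 37), with 138, 201, 376 and 482 without CT db library 51, CT db library 75, CT ob library 60 and CT db library 69. For ob/ob against db/db they were 2, 72 by DESeq2, 535 without a filter, 1 with at least 10 counts in every library, 4 with only those groups fitted, and 2 to 3 with a library left out. Without a filter 2 tetraspanins were called in the db model, 1 CD9 partner in the ob model, and 1 tetraspanin and 1 CD9 partner for ob/ob against db/db, and DESeq2 called 11 listed genes between the controls. CPM without TMM factors moved each mean by less than its SD, and levels per kb rose with the shorter length of the longest transcript. No paired analysis was possible because the columns carry none of the replicate numbers of the labels.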
